A study of Mus musculus with 6 samples.

Results

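The keratin genes of the mouse were followed through RNA-seq of intestinal adenoma tumoroids with and without an intact gene for the kinase IKKa. A keratin was any protein-coding gene whose GENCODE symbol on GRCm38 is Krt followed by a number and at most 1 letter, which gave 53 genes of the 49585 gene identifiers in the deposited tables. Of these, 28 encode type I (acidic) and 25 type II (basic) chains. By the epithelium in which they are best known, 5 were classed as keratins of simple epithelium, 18 as keratins of stratified epithelium, 16 as hair shaft keratins, 8 as keratins of the hair follicle sheaths and 6 as other.

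Keratins are the intermediate filament proteins of epithelial cells, and each filament is built from heterodimers of a type I and a type II chain. Epithelia made of a single cell sheet, such as the intestinal lining, are known for Krt8 with Krt18, Krt19 and Krt20, whereas layered epithelia such as skin and oesophagus use Krt5 with Krt14 in the basal layer and other pairs above it. Krt6a, Krt6b, Krt16 and Krt17 are known from wounded and stressed skin, and the hair keratins from the hair shaft and its sheaths.

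The 3 knock-out libraries carried floxed IKKa alleles (IKKa FL/FL) and the 3 wild-type libraries intact ones (IKKa +/+). All 6 shared the C57BL/6 strain, heterozygous Apc Min (APC min/+) and Cre under the Villin promoter, which is active in intestinal epithelium. The cells grew in Matrigel with R-spondin, Noggin, EGF, basic FGF and a ROCK inhibitor, so the medium was the same for both genotypes as far as the labels say. The replicates are called biological, but no label ties them to separate mice or cultures, and the p-values therefore measure only how these libraries vary, perhaps for technical reasons. Depth was 26785922 to 31875723 counts in knock-out libraries and 20749747 to 29752507 in wild-type libraries.

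Chuk, the gene of IKKa, had 914, 652 and 1082 counts in knock-out libraries and 3005, 2192 and 2578 counts in wild-type libraries. It averaged 29.4 ± 5.27 CPM in knock-out libraries and 101 ± 5.21 CPM in wild-type libraries (CPM, counts scaled to library size by TMM, mean ± SD, n = 3 each). The groups did not overlap, and Chuk was 3.42-fold lower in the knock-out (adjusted p = 8.6e-08 by edgeR's quasi-likelihood test with Benjamini-Hochberg adjustment). Reads were counted per gene, and the counts left in the knock-out cannot be assigned to intact or deleted transcripts. Mitochondrially encoded genes took 2.15% to 3.46% of counts in knock-out libraries and 6.18% to 7.58% in wild-type libraries. Xist, transcribed from the inactive X chromosome, had 0.0677 ± 0.0332 CPM in knock-out and 1233 ± 331 CPM in wild-type libraries, while the Y-linked Ddx3y had 49.6 ± 13.2 CPM in knock-out libraries and no count in wild-type libraries. The genotype and the sex or animal the cultures came from therefore cannot be told apart in any result below. Knock-out replicate 2 stood apart from the other knock-out libraries, with a chi-square per degree of freedom of 36.4 and 37.0 against them, where those libraries had 5.64 between themselves.

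Of the 53 keratins, 38 had at least 1 count in some library and 15 had none. The filter on low counts left 22 keratins for the test of knock-out against wild type, and 31 stayed below it, 16 of them with a count. In the knock-out, 17 of the 22 were higher, 2 were lower and 3 did not pass (edgeR quasi-likelihood test, Benjamini-Hochberg adjusted over 13759 genes, threshold 0.05). Over all genes tested, 30.4% were higher and 27% lower. The knock-out and wild-type libraries did not overlap for 19 of the 22 keratins, against 63.1% of all genes tested. The median log2 fold change of the tested keratins was 3.13, against 0.002 for all genes tested. A total of 12 keratins were higher by at least 4-fold, a mark that 9.02% of all genes tested reached. In bulk RNA a change in the number of cells of a type and a change in the RNA per cell cannot be told apart.

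These counts depend on which keratins the filter let through. The wild-type libraries alone would have passed 13 of the 22, and of these 9 were higher, 4 of them by at least 4-fold, 2 lower and 2 not called, with a median log2 fold change of 1.10. The other 9 passed through the knock-out libraries, where a gene near 0 in the wild type had to be high to be tested at all. They were Krt5, Krt6b, Krt13, Krt16, Krt78, Krt79, Krt33a, Krt36 and Krt90. Their median log2 fold change was 6.13, and 8 were higher, all by at least 4-fold. The calls and p-values of these 9 below, and the median and the 4-fold count over all 22, carry that limit and are no measure of how keratins as a family changed. Among the 13, Krt39 had no count in the knock-out and was tested through the wild-type libraries alone. Its lower call carries the same limit in the other direction.

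**Figure D1:**
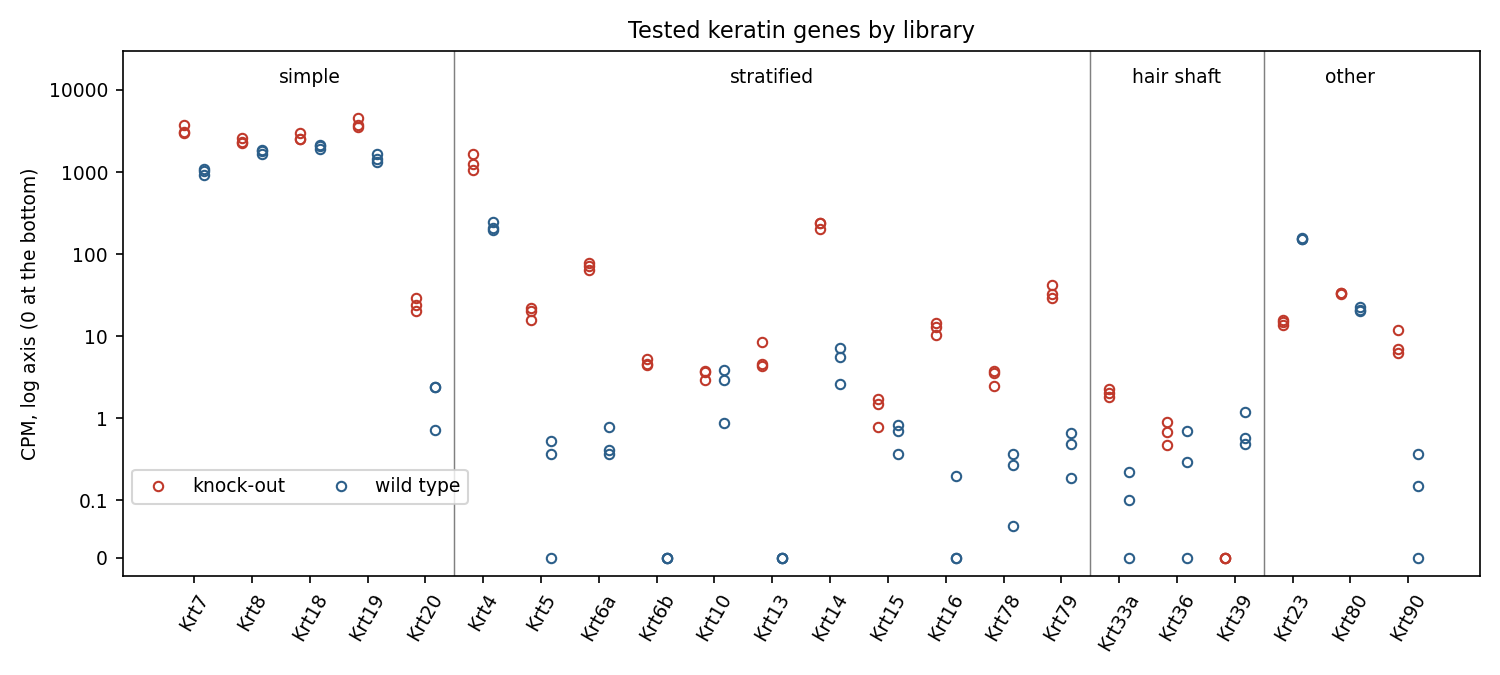
CPM on a log axis (0 at the bottom) for the 22 tested keratins, 1 circle per library, knock-out left of wild type for each gene, grouped by class. Krt7, Krt8, Krt18 and Krt19 were high in all 6 libraries, most stratified keratins were near or under 1 CPM in wild-type libraries, and Krt23 and Krt39 were the 2 genes lower in the knock-out.

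The DNA before the start of 3 keratin genes is shown because they span the changes described below and because IKKa acts on the transcription factor NF-kB. Of the 13 tested keratins with a usable RefSeq window, Krt79 and Krt23 held a match to the NF-kB motif, and they changed in opposite directions, while Krt5, the basal-layer type II chain, had a match to none of the motifs searched. Each line gives 250 bases up to the transcription start in RefSeq (GRCm38), 5′ to 3′ on the gene's own strand, which is the minus strand for all 3, with the NF-kB match in capitals. The windows are chr15:101940325-101940574 for Krt79, chr15:101712906-101713155 for Krt5 and chr11:99493121-99493370 for Krt23. The RefSeq start was 0, 7 and 17 bases from the start of the principal GENCODE transcript of Krt79, Krt5 and Krt23.
Krt79: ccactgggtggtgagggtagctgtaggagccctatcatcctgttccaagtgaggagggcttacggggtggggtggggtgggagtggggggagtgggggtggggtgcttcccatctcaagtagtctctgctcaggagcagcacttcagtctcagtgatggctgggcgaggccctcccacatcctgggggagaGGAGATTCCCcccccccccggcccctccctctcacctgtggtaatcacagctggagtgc
Krt5: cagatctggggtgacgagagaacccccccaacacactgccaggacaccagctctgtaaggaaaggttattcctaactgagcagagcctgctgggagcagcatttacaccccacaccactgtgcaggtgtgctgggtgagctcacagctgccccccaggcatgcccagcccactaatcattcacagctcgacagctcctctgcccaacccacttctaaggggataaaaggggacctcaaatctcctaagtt
Krt23: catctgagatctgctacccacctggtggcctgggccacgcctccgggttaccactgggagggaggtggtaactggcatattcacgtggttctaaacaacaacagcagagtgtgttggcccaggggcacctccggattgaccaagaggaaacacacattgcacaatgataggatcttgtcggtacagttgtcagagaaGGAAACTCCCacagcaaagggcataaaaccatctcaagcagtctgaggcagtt

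The match began 59 bases before the start in Krt79 and 53 bases before it in Krt23. RefSeq windows of 300 bases, with 50 bases after the start, were at hand for 36 of the 53 keratins, and 35 lay within 200 bases of the principal start. Of the 13 tested keratins among these, 2 held the NF-kB motif, which was in 4.51% of 32851 such windows of all genes. The TATA motif (TATAAA) was in 3 of the 13 keratins and 13.6% of all windows, the AP-1 motif (TGANTCA) in 1 (Krt13) and 7.81%, and the CDX motif (TTTATNG) in 1 (Krt20) and 10.9%. The KLF motif (CCNCNCCC) was in 7 of the 13 and in 49.5% of all windows. Of the 13, 9 were higher in the knock-out, with Krt5, Krt13, Krt78, Krt79 and Krt90 tested through the knock-out libraries alone. Among the 9, KLF was in 7, TATA in 2, and AP-1, CDX and NF-kB in 1 each. A link between a motif and the direction of change was not tested. All motifs were searched on both strands. The other 9 tested keratins, Krt4, Krt6a, Krt6b, Krt14, Krt15, Krt16, Krt19, Krt33a and Krt80, were not searched. In Krt79 some of the KLF matches overlapped the NF-kB match, and in Krt20 the TATA match overlapped the CDX match.

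All 5 keratins of simple epithelium were tested and all 5 were higher in the knock-out, with a median log2 fold change of 1.43. Krt8 and Krt18, the pair found in nearly all simple epithelia, moved least. Krt7, a type II chain typical of ducts and of the bladder lining, and Krt19, the short type I chain of simple and glandular epithelium, moved more. Krt20, a type I chain of mature enterocytes and goblet cells, had the largest fold and the lowest level.

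Krt19 had 3749, 4599 and 3552 CPM in knock-out libraries and 1341, 1653 and 1429 CPM in wild-type libraries. Every knock-out library was above every wild-type library, and the gene was 2.69-fold higher (log2 fold change 1.43 ± 0.11 SE, edgeR quasi-likelihood, Benjamini-Hochberg adjusted p = 3.8e-07). Krt7 had 3064, 3708 and 2968 CPM in knock-out libraries and 926, 1088 and 1036 CPM in wild-type libraries. The groups again stood well apart, and Krt7 was 3.19-fold higher (log2 1.67 ± 0.10, adjusted p = 3.5e-08).

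Krt8 had 2321, 2575 and 2267 CPM in knock-out libraries and 1663, 1850 and 1792 CPM in wild-type libraries. Its type I partner Krt18 had 2555, 3000 and 2527 CPM in knock-out libraries and 1923, 2067 and 2139 CPM in wild-type libraries. Neither gene's groups overlapped, yet the changes were small, 1.35-fold for Krt8 (log2 0.43 ± 0.08, adjusted p = 6e-04) and 1.32-fold for Krt18 (log2 0.40 ± 0.09, adjusted p = 0.0019). Krt8 shares 26.9% of its 50-base transcript stretches with the pseudogene Krt8-ps, which itself held 64, 71 and 71 counts in knock-out libraries and 66, 40 and 36 counts in wild-type libraries, few beside those of Krt8.

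Krt20 had 29.2, 20.5 and 23.8 CPM in knock-out libraries and 2.41, 0.726 and 2.38 CPM in wild-type libraries. The gene was low in both genotypes beside the other simple keratins and 12.6-fold higher in the knock-out (log2 3.66 ± 0.32, adjusted p = 1.7e-07).

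**Figure D2:**
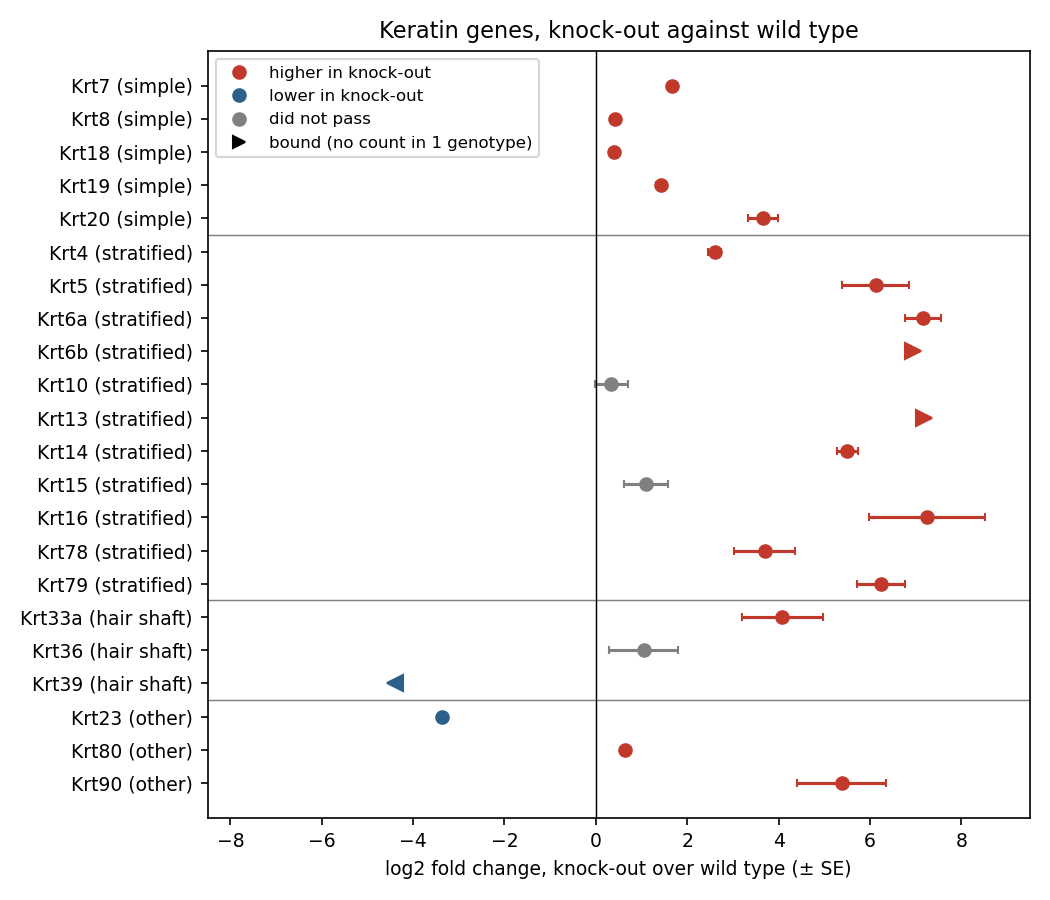
Log2 fold change, knock-out over wild type, for the 22 tested keratins by class. Points are estimates of the edgeR fit with their standard errors (bars within a point's width are hidden), and triangles are bounds for genes without a count in 1 genotype. The simple keratins lie between 0.40 and 3.66, and 9 of the 11 stratified keratins lie at 2.60 or above.

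Of the 18 keratins of stratified epithelium, 15 had a count, 11 were tested and 9 of these were higher in the knock-out, while Krt10 and Krt15 did not pass and none was lower. The median log2 fold change of the 11 was 6.13, with 6 of them tested through the knock-out libraries alone. It was the same with Krt6b and Krt13, which had no wild-type count, set at their bounds. Of the 5 that wild-type libraries alone would have passed (Krt4, Krt6a, Krt10, Krt14 and Krt15), 3 were higher, and their median was 2.60. The 9 called genes were 3 of 3 tested mucosal keratins (Krt4, Krt13, Krt78), 2 of 3 basal-layer keratins (Krt5, Krt14), 3 of 3 tested keratins of wounded skin (Krt6a, Krt6b, Krt16) and Krt79.

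Krt4, the type II chain of the lining of mouth and oesophagus, was by far the most abundant of them. It had 1245, 1649 and 1049 CPM in knock-out libraries and 206, 198 and 246 CPM in wild-type libraries. It was thus well expressed in both genotypes and 6.07-fold higher in the knock-out (log2 2.60 ± 0.14, adjusted p = 2.2e-08). Krt13, its usual type I partner in those linings, had 4.29, 8.50 and 4.61 CPM in knock-out libraries and no count in any wild-type library. That is at least 146-fold higher, with 3 counts over the pooled wild-type libraries as the floor (adjusted p = 2.6e-05). Even so, Krt4 exceeded Krt13 by a ratio of 202 ± 41.5 in knock-out libraries on the scale of CPM per kb of exon. Krt78, a type II chain of upper layers, had 2.46, 3.82 and 3.52 CPM in knock-out libraries and 0.268, 0.0484 and 0.371 CPM in wild-type libraries. Its groups did not overlap and it was 13-fold higher (adjusted p = 2.5e-05).

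Krt14, the type I chain of the basal layer, had 205, 239 and 239 CPM in knock-out libraries and 5.56, 7.17 and 2.64 CPM in wild-type libraries. Every library had reads of it, and it was 45.4-fold higher in the knock-out (log2 5.51 ± 0.22, adjusted p = 4.1e-10). Krt5, the chain it pairs with, had 15.7, 22.4 and 20.1 CPM in knock-out libraries and 0, 0.533 and 0.371 CPM in wild-type libraries. The gene was 69.9-fold higher (log2 6.13 ± 0.73, adjusted p = 3.5e-08), a value that rests on 21 wild-type counts. Per kb of exon, Krt14 exceeded Krt5 by a ratio of 14.9 ± 1.48 in knock-out libraries, so the pair was far from equal in RNA. Krt15, the other type I chain of the basal layer, had 0.789, 1.72 and 1.48 CPM in knock-out libraries and 0.368, 0.823 and 0.706 CPM in wild-type libraries. The groups overlapped and the difference did not pass (log2 1.10 ± 0.49, adjusted p = 0.065), although it passed without knock-out replicate 1 (log2 1.39, adjusted p = 0.033).

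Krt6a, a type II chain that skin makes after wounding, had 63.2, 70.7 and 78.3 CPM in knock-out libraries and 0.368, 0.775 and 0.409 CPM in wild-type libraries. It was 143-fold higher (log2 7.16 ± 0.39, adjusted p = 6.4e-11). Its near-copy Krt6b had 4.48, 4.60 and 5.32 CPM in knock-out libraries and no count in wild-type libraries, at least 124-fold higher (adjusted p = 3.1e-06). The Krt6a and Krt6b transcripts share 43.6% of the 50-base stretches of Krt6a, so how reads were divided between them is uncertain, though Krt6a exceeded Krt6b 13.6-fold per kb in knock-out libraries. Krt16, the type I chain that accompanies them in skin, had 10.3, 14.5 and 13.1 CPM in knock-out libraries and 0.201, 0 and 0 CPM in wild-type libraries. Its 154-fold difference (log2 7.26 ± 1.27, adjusted p = 6.2e-09) rests on 6 wild-type counts, all in replicate 1, and 37.6% of its 50-base stretches occur in other transcripts. Krt17, the remaining wound keratin, had 1 count in all, in knock-out replicate 3.

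Krt79, a type II chain of the hair follicle opening in the mouse, had 33.0, 41.7 and 28.9 CPM in knock-out libraries and 0.670, 0.484 and 0.186 CPM in wild-type libraries. It was 75.5-fold higher (log2 6.24 ± 0.52, adjusted p = 3.8e-09). Its upstream sequence above holds an NF-kB match, as does that of Krt23, which was lower, and a link to the change was not tested. By contrast, the keratins of the outer epidermis stayed low. Krt10, the type I chain of the suprabasal layers, had 3.73, 3.67 and 2.94 CPM in knock-out libraries and 3.92, 0.872 and 2.90 CPM in wild-type libraries. The groups overlapped and the gene did not pass (log2 0.34 ± 0.36, adjusted p = 0.46), and its estimate was 0.00 without wild-type replicate 2. Its type II partner Krt1 had 3, 27 and 6 counts in knock-out libraries and 1 count in wild-type libraries, a ratio of 31.2 with an exact 95% counting interval of 5.25 to 1270, mostly from knock-out replicate 2. Krt2 and Krt9, of the outer epidermis, and Krt12, of the cornea, had no count in any library. Krt76, of the palate, had 19 counts in knock-out libraries and none in wild-type libraries, and Krt77, of the epidermis, had 4 in knock-out libraries and none in wild-type libraries.

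Hair keratins were scarce. Of the 16 hair shaft genes 11 had a count and 3 were tested, and of the 8 follicle sheath genes 3 had a count and none was tested. Krt33a, of the hair cortex, had 2.05, 2.28 and 1.81 CPM in knock-out libraries and 0.10, 0 and 0.223 CPM in wild-type libraries. It was 16.9-fold higher (log2 4.08 ± 0.89, adjusted p = 3.2e-05), and without wild-type replicate 3, which leaves 3 wild-type counts, the ratio was 34.3 (exact 95% counting interval 11.5 to 168). Krt39, of the hair cuticle, went the other way, with no count in knock-out libraries and 0.569, 1.21 and 0.483 CPM in wild-type libraries, at least 21.2-fold lower (adjusted p = 0.0018). It was tested through the wild-type libraries alone, so its call carries the limit of the filter given above. Krt36 had 0.474, 0.898 and 0.678 CPM in knock-out libraries and 0, 0.291 and 0.706 CPM in wild-type libraries, which overlapped and did not pass (adjusted p = 0.24). Among those under the filter, Krt84 had 17, 4 and 30 counts in knock-out libraries and none in wild-type libraries, at least 14.7-fold higher by the same floor. Krt32 had 1 count in knock-out libraries and 12 counts in wild-type libraries, all 12 in replicate 1, a ratio of 13.8 lower (counting interval 2.05 to 592). Krt87 had 7 counts in knock-out libraries and 19 in wild-type libraries, and Krt88 had 14 in knock-out libraries and 22 in wild-type libraries. Krt27, Krt31, Krt33b, Krt73, Krt75, Krt83 and Krt86 had at most 7 counts in either genotype. Such intervals and floors cover counting error only.

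The 3 tested genes outside these classes moved apart from each other. Krt23, a type I chain known from gut and pancreas tumours, had 13.9, 15.1 and 15.8 CPM in knock-out libraries and 153, 153 and 156 CPM in wild-type libraries. Replicates agreed closely, and the gene was 10.3-fold lower in the knock-out (log2 -3.37 ± 0.09, adjusted p = 2.9e-11). It is the only keratin above 2 CPM in either genotype that was lower. Krt80, a type II chain found at cell margins in many epithelia, had 33.0, 33.5 and 33.6 CPM in knock-out libraries and 20.2, 22.9 and 20.8 CPM in wild-type libraries. The difference of 1.57-fold was small beside the others but larger than the spread (log2 0.65 ± 0.10, adjusted p = 1.7e-04). Krt90 had 6.91, 11.8 and 6.23 CPM in knock-out libraries and 0.368, 0 and 0.149 CPM in wild-type libraries, 41.5-fold higher (log2 5.38 ± 0.98, adjusted p = 2.1e-06), and 93.1-fold without wild-type replicate 1. Krt42 had 10, 0 and 8 counts in knock-out libraries and none in wild-type libraries, and Krt24 and Krt222 had none at all.

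By chain type, all 10 tested type II keratins were higher in the knock-out, and of the 12 tested type I keratins 7 were higher, 2 lower and 3 not called. Of these, 5 type II and 4 type I keratins were tested through the knock-out libraries alone and Krt39 through the wild-type libraries alone. Their calls carry the limit given above. Over all genes tested, 30.4% were higher. The difference between the types was not tested.

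Keratins took 1.33%, 1.60% and 1.29% of all counts in knock-out libraries and 0.627%, 0.701% and 0.687% in wild-type libraries. The means were 1.41 ± 0.169% in knock-out libraries and 0.672 ± 0.0392% in wild-type libraries, and the groups did not overlap. With mitochondrially encoded genes left out of the total, they were 1.44% in knock-out libraries and 0.723% in wild-type libraries. Divided by exon length so that genes can be added, the keratin sum was 6534 ± 774 CPM per kb in knock-out libraries and 3475 ± 201 CPM per kb in wild-type libraries. Simple keratins made up 87.4 ± 0.79% of that sum in knock-out libraries and 94.0 ± 0.444% in wild-type libraries. The share of stratified keratins was 12.3 ± 0.808% in knock-out libraries and 3.07 ± 0.332% in wild-type libraries. Most of this stratified share was Krt4, with 9.35 ± 1.10% of the keratin sum in knock-out libraries and 2.93 ± 0.352% in wild-type libraries, and Krt14, with 1.99 ± 0.244% in knock-out libraries and 0.0840 ± 0.0369% in wild-type libraries.

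The simple keratins therefore stayed the bulk of keratin RNA in both genotypes, in a changed proportion. Krt18 held 28.7 ± 0.644% of the keratin sum in knock-out libraries and 40.9 ± 1.20% in wild-type libraries, and Krt8 held 18.7 ± 0.88% in knock-out libraries and 26.0 ± 0.166% in wild-type libraries. Krt19 held 32.7 ± 0.698% in knock-out libraries and 22.8 ± 1.5% in wild-type libraries. Krt7 held 7.05 ± 0.0437% in knock-out libraries and 4.15 ± 0.104% in wild-type libraries, levels that an exon length of 7049 bases, much of it outside the 4094-base principal transcript, may understate. Of the net gain in the keratin sum, Krt19 accounted for 43.9%, Krt4 for 16.8%, Krt18 for 14.8%, Krt8 for 10.3%, Krt7 for 10.3% and Krt14 for 4.14%, and the fall of Krt23 for -2.91%. The many-fold changes of the other stratified keratins added little, with Krt6a at 0.95%. The order of these shares depends on the length used. By the principal transcript Krt7 had 793 ± 98.3 CPM per kb in knock-out libraries and 248 ± 20.2 in wild-type libraries. Krt4, whose length is the same either way, had 616.2 ± 143.5 in knock-out libraries and 101.5 ± 12.1 in wild-type libraries.

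**Figure D3:**
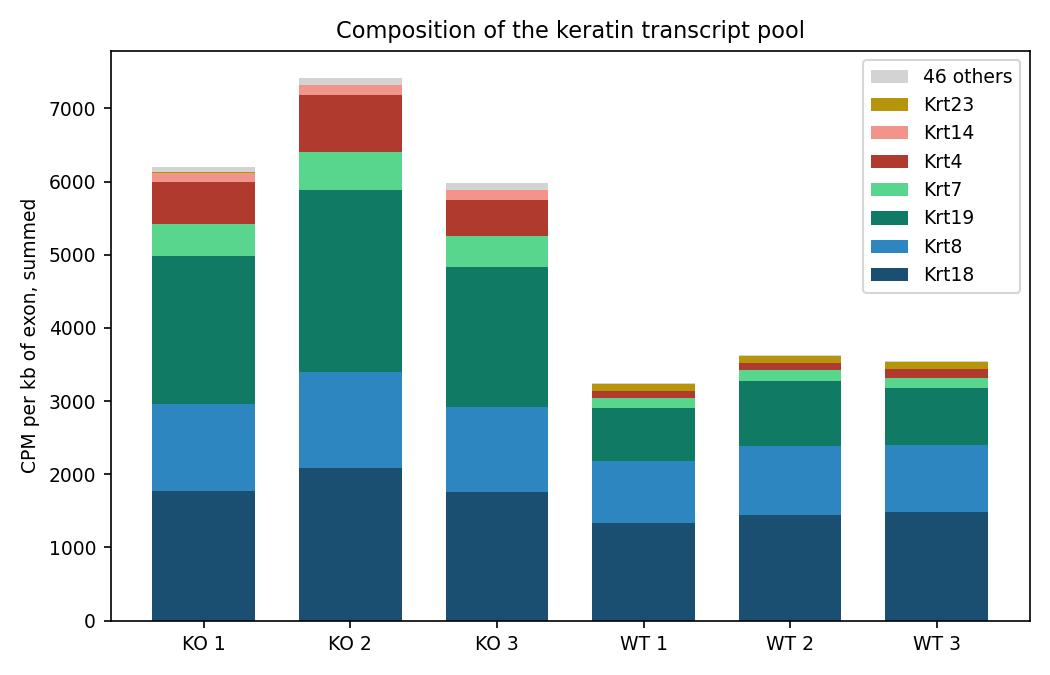
Summed CPM per kb of exon of all 53 keratins in each library, knock-out left of wild type, with the 7 genes that hold over 1% of the sum in either genotype in colour. The knock-out bars reach 5977 to 7418 and the wild-type bars 3248 to 3630, with larger Krt19, Krt4, Krt7 and Krt14 segments and a smaller Krt23 segment in the knock-out.

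Ratios between keratin genes within a library do not depend on library scaling. The ratio of Krt18 to Krt8 was 1.54 ± 0.046 in knock-out libraries and 1.58 ± 0.0514 in wild-type libraries, which overlapped. The ratio of Krt19 to Krt18 was 1.14 ± 0.0493 in knock-out libraries and 0.559 ± 0.0535 in wild-type libraries, and that of Krt7 to Krt8 was 0.377 ± 0.0201 in knock-out libraries and 0.160 ± 0.00446 in wild-type libraries, with no overlap for either. The ratio of Krt19 to Krt7 was 4.64 ± 0.0833 in knock-out libraries and 5.50 ± 0.267 in wild-type libraries. The ratio of Krt5 to Krt14 was 0.0612, 0.0748 and 0.0674 in knock-out libraries and 0, 0.0595 and 0.113 in wild-type libraries, which overlapped. Over all keratins, type I chains exceeded type II chains by 1.75, 1.77 and 1.81 in knock-out libraries and 2.00, 2.03 and 2.00 in wild-type libraries. This ratio averaged 1.78 ± 0.0268 in knock-out libraries and 2.01 ± 0.0192 in wild-type libraries. Among the simple keratins alone it was 2.39 ± 0.0825 in knock-out libraries and 2.12 ± 0.0122 in wild-type libraries, a direction that turned round without length correction, at 1.19 in knock-out libraries and 1.26 in wild-type libraries. Among stratified keratins type II exceeded type I by 4.65 ± 0.911 in knock-out libraries and 24.1 ± 9.78 in wild-type libraries.

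By level per kb among 21734 protein-coding genes, Krt19 ranked 5 in knock-out libraries and 19 in wild-type libraries, Krt18 ranked 7 in knock-out libraries and 10 in wild-type libraries, and Krt8 ranked 14 in knock-out libraries and 16 in wild-type libraries. Krt4 ranked 28 in knock-out libraries and 363 in wild-type libraries, Krt7 ranked 36 in knock-out libraries and 211 in wild-type libraries, and Krt14 ranked 246 in knock-out libraries and 8626 in wild-type libraries. Krt23 moved the other way, with rank 5368 in knock-out libraries and 379 in wild-type libraries. Within the knock-out, replicate 2 was the highest library for 12 of the 19 called keratins, replicate 3 for 5 and replicate 1 for 1, with Krt39 at 0 in all. Without replicate 2, 18 keratins were higher and 2 lower. Krt10, Krt15 and Krt36 still did not pass, so the added keratin was outside the 22 and was let in when the filter was rerun.

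The keratins lie in clusters, 27 of them on chromosome 11 between 99232761 and 100269871 and 26 on chromosome 15 between 101347444 and 102032027 (GRCm38). All type II genes and the type I gene Krt18 are in the second. On chromosome 15, neighbouring keratins that were all higher in the knock-out were Krt80 with Krt7, then Krt6b, Krt6a and Krt5, and then Krt4, Krt79, Krt78, Krt8 and Krt18, while Krt90 was higher between untested keratins. Every tested keratin on chromosome 15 was higher, so these runs only show where untested keratins lie. Krt5, Krt6b, Krt78, Krt79 and Krt90 were tested through the knock-out libraries alone. On chromosome 11, Krt23 and Krt39, both lower, lay close to each other and near Krt20, which was higher. Inside that cluster are 23 genes of keratin-associated hair proteins (Krtap), of which 3 had a count and none was tested. The nearest tested genes outside the clusters moved less than most of the stratified keratins. Smarce1 before the first cluster had 52.3 ± 3.55 CPM in knock-out libraries and 59.3 ± 3.54 CPM in wild-type libraries (adjusted p = 0.11), and Gm14206 after it had 0.424 ± 0.0758 CPM in knock-out libraries and 0.113 ± 0.196 CPM in wild-type libraries (log2 2.18, adjusted p = 0.1). Atg101 before the second had 61.1 ± 2.26 CPM in knock-out libraries and 45.5 ± 3.38 CPM in wild-type libraries (log2 0.42, adjusted p = 0.0015), and Eif4b after it 663 ± 24.8 CPM in knock-out libraries and 810 ± 21.3 CPM in wild-type libraries (log2 -0.29, adjusted p = 0.0032). Atg101 thus moved about as far as Krt8 (log2 0.43) and Krt18 (log2 0.40). Gm11560, which lies inside a keratin cluster, had 1.00 ± 0.138 CPM in knock-out libraries and 1.02 ± 0.214 CPM in wild-type libraries and did not pass (log2 0.00).

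**Figure D4:**
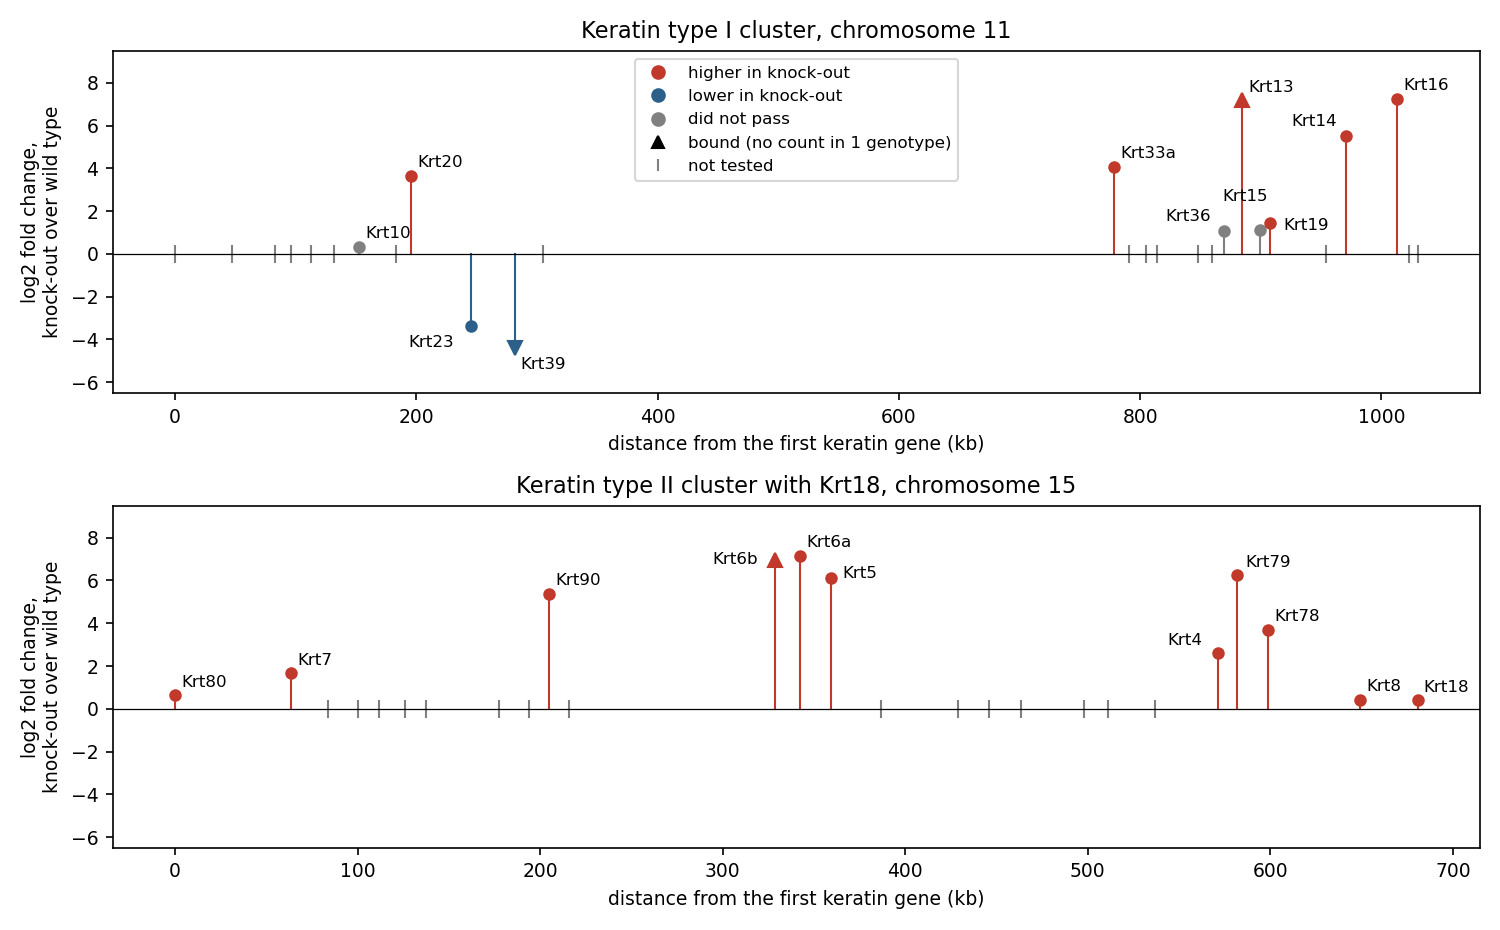
Log2 fold change, knock-out over wild type, of the keratins along their clusters, by distance from the first keratin gene in kb, with ticks for genes not tested and triangles for bounds. Every tested keratin on chromosome 15 was higher, so the runs there only show where untested keratins lie. The lower genes Krt23 and Krt39 are close together on chromosome 11.

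Genes that anchor keratin filaments changed in both directions. Of 12 tested genes for plakins and other keratin linkers, 10 were higher and 2 lower, beside 30.4% higher and 27% lower over all genes tested, and their median log2 fold change was 0.70. The same shares of all genes are the background of the other lists below. The limit of the filter holds for those lists too. A gene near 0 in 1 genotype was tested only because it was high in the other, and the counts of calls include such genes. Plec, which encodes plectin, a linker of filaments to hemidesmosomes, had 400 ± 34.5 CPM in knock-out libraries and 116 ± 13.5 CPM in wild-type libraries (adjusted p = 1.4e-08). Dst, which encodes the plakin BPAG1, had 96.8 ± 26.1 CPM in knock-out libraries and 9.06 ± 2.07 CPM in wild-type libraries (adjusted p = 5.2e-08), and Evpl, for envoplakin of the cornified envelope, 101 ± 10.6 CPM in knock-out libraries and 40.8 ± 0.998 CPM in wild-type libraries (adjusted p = 1.9e-07). The lower genes were Dsp, for desmoplakin, with 540 ± 77.1 CPM in knock-out libraries and 771 ± 67.2 CPM in wild-type libraries (adjusted p = 0.0012), and Pkp2, for plakophilin 2, with 52.4 ± 1.51 CPM in knock-out libraries and 106 ± 1.52 CPM in wild-type libraries (adjusted p = 2.5e-07).

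Of the 9 genes for desmosome cadherins, to which keratins attach through desmoplakin, 4 were tested. Dsc2, with 69.2 ± 9.87 CPM in knock-out libraries and 274 ± 21.9 CPM in wild-type libraries, and Dsg2, with 224 ± 36.0 CPM in knock-out libraries and 478 ± 15.9 CPM in wild-type libraries, were lower (adjusted p = 1.3e-08 and 2.3e-06), as was Dsg1c, without a count in the knock-out (adjusted p = 7.7e-05). Dsg3, the cadherin of the basal layer of skin, was higher, at 7.18 ± 3.11 CPM in knock-out libraries and 0.0285 ± 0.0253 CPM in wild-type libraries (adjusted p = 4.2e-06). Dsg3 was tested through the knock-out libraries alone and Dsg1c through the wild-type libraries alone, so their calls carry the limit of the filter.

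Other intermediate filament genes changed in both directions, 6 of 9 tested higher and 3 lower. Lmna, the gene of lamins A and C, had 584 ± 57.0 CPM in knock-out libraries and 247 ± 7.65 CPM in wild-type libraries (adjusted p = 8.2e-08). Lmnb2, for lamin B2, had 63.4 ± 5.09 CPM in knock-out libraries and 152 ± 4.12 CPM in wild-type libraries (adjusted p = 6.8e-08), Lmnb1, for lamin B1, had 207 ± 10.8 CPM in knock-out libraries and 319 ± 4.37 CPM in wild-type libraries (adjusted p = 1e-05), and Iffo2 had 126 ± 7.97 CPM in knock-out libraries and 296 ± 6.09 CPM in wild-type libraries (adjusted p = 3.3e-08). Nefh, a neurofilament gene, had 22.8 ± 1.77 CPM in knock-out libraries and 2.49 ± 0.827 CPM in wild-type libraries (adjusted p = 3.8e-08). Vim, the vimentin gene of mesenchymal cells, had 0.141 ± 0.106 CPM in knock-out libraries and 0.217 ± 0.138 CPM in wild-type libraries and was not tested.

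Of 20 tested transcription factor genes known from stratified epithelium, 8 were higher, 9 lower and 3 not called, with a median log2 fold change of 0.09. Grhl1, Grhl2 and Ovol2 were those not called. Klf4 had 185 ± 4.64 CPM in knock-out libraries and 59.8 ± 2.96 CPM in wild-type libraries (adjusted p = 3.7e-09), and Nfe2l2 had 1029 ± 47.9 CPM in knock-out libraries and 388 ± 11.2 CPM in wild-type libraries (adjusted p = 7e-09). Hopx, with 8.26 ± 0.857 CPM in knock-out libraries and 237 ± 25.5 CPM in wild-type libraries (adjusted p = 1.3e-11), and Grhl3, with 0.743 ± 0.197 CPM in knock-out libraries and 57.4 ± 5.61 CPM in wild-type libraries (adjusted p = 7.7e-11), were lower. Trp63, the master regulator of the basal layer, which in skin drives Krt5 and Krt14, had 2 counts in knock-out libraries and 5 counts in wild-type libraries (0.0215 ± 0.0373 CPM in the knock-out, against 0.0608 ± 0.0678 CPM in the wild type), and Sox2 had none. The higher Krt5, Krt14 and Krt6a levels were thus measured in libraries with Trp63 near 0.

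Markers of intestinal epithelium other than Cdx1 were present in both genotypes. Of the 9 markers tested, 7 were lower in the knock-out, with summed levels of 3529 to 3844 CPM in knock-out libraries and 6035 to 6362 CPM in wild-type libraries. Cdx2, the homeobox factor of intestinal identity, had 20.6 ± 1.30 CPM in knock-out libraries and 193 ± 10.6 CPM in wild-type libraries (adjusted p = 4.2e-11), and Cdx1 had no count in knock-out libraries and 6.38 ± 0.2 CPM in wild-type libraries. Hnf4a had 176 ± 8.49 CPM in knock-out libraries and 480 ± 5.25 CPM in wild-type libraries (adjusted p = 4.8e-09), and Epcam 411 ± 12.9 CPM in knock-out libraries and 915 ± 30.6 CPM in wild-type libraries (adjusted p = 3.2e-08), while Cdh1 and Phgr1 did not pass. Markers of other cells that express some of these keratins also moved. The 8 mesothelial markers summed to 1834 to 2027 CPM in knock-out libraries and 433 to 511 CPM in wild-type libraries, of which 3 of 4 tested were higher (Msln, Upk1b and Muc16) and Upk3b did not pass. Nearly all of this sum was Msln, with 1913 ± 96.8 CPM in knock-out libraries and 466 ± 40.8 CPM in wild-type libraries (adjusted p = 1.3e-09), while Wt1 was at 0 in all 6 libraries. The 6 urothelial markers summed to 45.0 to 55.7 CPM in knock-out libraries and 3.11 to 4.60 CPM in wild-type libraries, mostly Psca, with 42.6 ± 5.25 CPM in knock-out libraries and 1.17 ± 0.523 CPM in wild-type libraries (adjusted p = 1.8e-09), and of 4 tested Psca and Upk3bl were higher, Upk3a was lower and Upk1a did not pass. Upk2 and Upk3a, which define urothelium, had no count in the knock-out. In wild-type libraries Upk2 had 10, 17 and 7 counts and Upk3a had 36, 13 and 49 counts. Snx31 had no count in any library. Muc16 and Upk3bl were tested through the knock-out libraries alone and Cdx1 and Upk3a through the wild-type libraries alone. Their calls carry the limit of the filter.

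The 10 fibroblast markers summed to 0.710 to 1.31 CPM in knock-out libraries and 0.167 to 0.339 CPM in wild-type libraries, with Col3a1, Dcn and Lum at 0 in all. The 1 tested, Col1a1, was higher, at 0.665 ± 0.185 CPM in knock-out libraries and 0.0248 ± 0.0429 CPM in wild-type libraries (adjusted p = 0.0022). The 10 immune markers summed to 24.4 to 26.4 CPM in knock-out libraries and 10.2 to 12.4 CPM in wild-type libraries, with Cd3e, Adgre1 and Tyrobp at 0 in all. Of 4 tested, 3 were higher and 1 lower. Csf1r, a receptor of macrophages, had 10.9 ± 0.36 CPM in knock-out libraries and 0.605 ± 0.723 CPM in wild-type libraries (adjusted p = 2.9e-06). Cd68, a lysosomal protein of macrophages, had 11.9 ± 0.436 CPM in knock-out libraries and 3.71 ± 2.34 CPM in wild-type libraries (adjusted p = 3e-04). Ptprc, for the leukocyte antigen CD45, was also higher, at 0.434 ± 0.0993 CPM in knock-out libraries and 0.0248 ± 0.0429 CPM in wild-type libraries (adjusted p = 0.0079), and Laptm5 was lower, at 1.85 ± 1.36 CPM in knock-out libraries and 6.07 ± 0.562 CPM in wild-type libraries (adjusted p = 0.0013). The 8 endothelial markers summed to 5.42 to 7.83 CPM in knock-out libraries and 25.4 to 29.3 CPM in wild-type libraries, with Kdr, Emcn and Cldn5 at 0 in all. Tek, an angiopoietin receptor, had 0.274 ± 0.145 CPM in knock-out libraries and 11.9 ± 2.46 CPM in wild-type libraries (adjusted p = 6.1e-08), and Vwf, for von Willebrand factor, was lower as well, at 0.511 ± 0.266 CPM in knock-out libraries and 7.71 ± 1.06 CPM in wild-type libraries (adjusted p = 7.7e-07), while Esam did not pass (adjusted p = 0.41). Col1a1, Csf1r and Ptprc were tested through the knock-out libraries alone and Tek and Vwf through the wild-type libraries alone, so their calls carry the limit of the filter. The part of the mitochondrial share and of all these markers in the keratin values was not tested.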

How the data were processed

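Polyadenylated RNA of tumoroids was sequenced from 6 stranded libraries, per the labels' protocols. Reads were aligned with STAR to GRCm38, per the submitters' processing notes. Not given in the sources used here are the STAR version, the counter, whether it used strand, what it did with reads of several matches, and the annotation release. Antisense genes overlap exons of Krt6a, Krt7, Krt10 and Krt80, so without the strand setting their reads cannot be told apart with certainty. The authors deposited raw whole-number counts for each Ensembl gene. GENCODE symbols matched 49326 of 49585 identifiers, and 259 had none.

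Counts of all genes were tested with the edgeR 4.0.16 quasi-likelihood test (R 4.3.3), with TMM scaling and a single genotype term, the filterByExpr filter (minimum count 10, minimum total 15) and Benjamini-Hochberg adjustment over the 13759 genes left, at a threshold of 0.05. Standard errors came from the negative binomial weights and the quasi-likelihood dispersion. For a genotype without counts, folds are bounds at 3 counts over its pooled libraries, which is 0.0336 CPM in knock-out libraries and 0.0387 CPM in wild-type libraries. For levels per kb, CPM were divided by the union of a gene's exons. Sums, shares and ratios over keratins are given without a test. At these depths 1 CPM is 20.8 to 31.9 counts per library. No pair of libraries agreed within sampling noise.

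The keratins, their classes and the other gene lists were chosen with earlier results of these data known. Every tested keratin is named, and of each list up to 4 genes with the smallest adjusted p and any gene that a count of 5 or fewer refers to. Identity between keratin proteins was not analysed here. Alternatives were DESeq2 1.42.0 and limma 3.58.1 (voom), 3 other scalings, no filter or 1 CPM in 3 libraries, an adjusted p of 0.01, a term for the replicate number, other gene lengths and classes, and leaving out each library. The scripts were first tested on simulated data with known changes.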

Additional observations from a re-analysis of the deposited data

How the results depend on the processing

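Of 305 recomputed log2 fold changes of tested keratins, 304 kept their direction and their side of the threshold, and the other was that of Krt15, which passed without knock-out replicate 1 (1.39). The 304 include Krt10 without wild-type replicate 2, whose estimate of 0.00 gives no direction. The 17 higher and 2 lower keratins were 17 to 18 and 2 when each library was left out in turn. Apart from Krt15 without knock-out replicate 1, an added keratin was outside the 22 and was let in when the filter was rerun. With a filter of 1 CPM in 3 libraries, which drops Krt39, 1 was lower. With Krt23 and Krt80 counted as simple, 1 simple keratin was lower instead of 0. Without mitochondrially encoded genes the keratin share of the wild type was 0.723% of counts. The ratio of type I to type II chains was 1.69 in knock-out libraries and 1.95 in wild-type libraries by the longest transcript, 1.69 in knock-out libraries and 1.95 in wild-type libraries by the principal transcript, and 0.976 in knock-out libraries and 1.22 in wild-type libraries without length correction, lower in the knock-out each time. By the principal transcript, a length chosen after seeing the data, the ratio of Krt7 to Krt8 was 0.649 in knock-out libraries and 0.275 in wild-type libraries, and that of Krt19 to Krt7 3.17 in knock-out libraries and 3.76 in wild-type libraries. Folds that rest on few counts also moved. Without wild-type replicate 1 no wild-type count of Krt16 was left, and it was at least 199-fold higher by the floor of 3 counts, while without replicate 3 it was 102-fold higher. Krt5 was 43.1-fold higher without replicate 1 and 107-fold without replicate 2, and by voom 138-fold, with Krt16 at 271-fold.

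With a block for the replicate number, 17 keratins were higher and 2 lower, the same counts as without it, and 3959 and 3473 of all genes, against 4182 and 3714 without it. Deviations of same-numbered knock-out and wild-type libraries correlated at 0.0388, -0.0411 and -0.0804, and those of differently numbered libraries at -0.0676 to 0.118. Same-numbered libraries thus did not stand out, but with 3 libraries per genotype this cannot settle whether they were handled together. Without the filter on low counts, 20 keratins were higher and 2 lower, the 3 added being Krt1, Krt76 and Krt84 (adjusted p = 0.0089, 0.047 and 0.00037), and 11 of the 20 were stratified. Counts of 0 do not show absence.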
